A study of Cicer arietinum with 18 samples.

Results

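Ethylene is a gaseous plant hormone made from aminocyclopropane carboxylic acid (ACC), its direct precursor, and plants given ACC turn it into ethylene. Salicylic acid (SA) is the hormone of systemic acquired resistance, and methyl jasmonate (MeJA) is a volatile ester of the wound hormone jasmonic acid. The 3 compounds act in defence signalling, and the pathways they feed can work together or against each other. The features described here had a low mean 27 h after ACC, while their mean 27 h after SA stayed near the untreated control. They number 51 of the 715 experimental features on a spotted 2-colour cDNA array. They were chosen from the 469 features with identifiers starting in CA or U that had at least 2 values 27 h after SA and at least 2 values 27 h after ACC. The mean log2 ratio 27 h after ACC had to be at or below -0.5, and the mean 27 h after SA above -0.5 and below 0.4.

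RNA came from shoots (stem and leaf, pooled) of chickpea (Cicer arietinum) seedlings aged 14 days. The 18 samples combine the genotypes FLIP94-508C, ICC3996 and Lasseter with SA, MeJA or ACC and with harvest at 3 h or 27 h, 1 sample for each combination. Of the genotypes, Lasseter is known to be susceptible to ascochyta blight, ICC3996 to be resistant and FLIP94-508C to be intermediate. Each treated RNA was hybridised with RNA of untreated control plants of the same genotype, and each value is the authors' mean log2 ratio over 3 biological replications, which have no error of their own here. The ratio is read as treated over control, a likely reading (the labels list control first and treatment second) that no source states for these values. Doses, and whether the compounds shared untreated controls at a time, are not given in the sources used here. In bulk tissue, less RNA per cell and fewer cells of a kind cannot be told apart.

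The identifiers are not paired with genes in the files, and 0 of the 51 matched the chickpea reference gene table, so the features have no gene names or roles and are given by identifier. Each sample held values for 534 to 639 of the 715 features. Sample medians over all features ran from -0.32 to 0.00 and standard deviations over all features from 0.28 to 1.22 on the log2 scale. Of the 51, 11 carry a CA and 40 a U identifier, so CA made up 21.6% of them and 20.9% of all CA and U features. A value in all 18 samples was present for 45 of the 51, and 49 entered the tests, which asked for at least 2 values in each group. The other two, U468 and U257, had only 1 value 3 h after SA and 27 h after MeJA, respectively.

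The 27 h values under SA and ACC chose the features and are given as a description with no test. Over the 51, the median of the means was -0.83 after ACC (1.78-fold lower than control) and -0.23 after SA. Over all features these medians were -0.29 and -0.20. The SA mean was below 0 for 42 of the 51 (82.4%), beside 65.1% of all features. For 4 of the 51 a value 27 h after SA was at least 2-fold below control in at least 1 genotype. Every ACC value measured lay below every SA value for 15 of the 51. The choice itself favoured such gaps, and no share over all features is given for this count. A mean at least 2-fold below control 27 h after ACC was seen for 20 of the 51, beside 19.4% of all features. The lowest means after ACC with a value in every genotype were those of U319, U468, U458, CA1120, U157 and U356. The scatter plot of the means 27 h after SA and ACC shows where the 51 lie among the CA and U features.

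**Figure D1:**
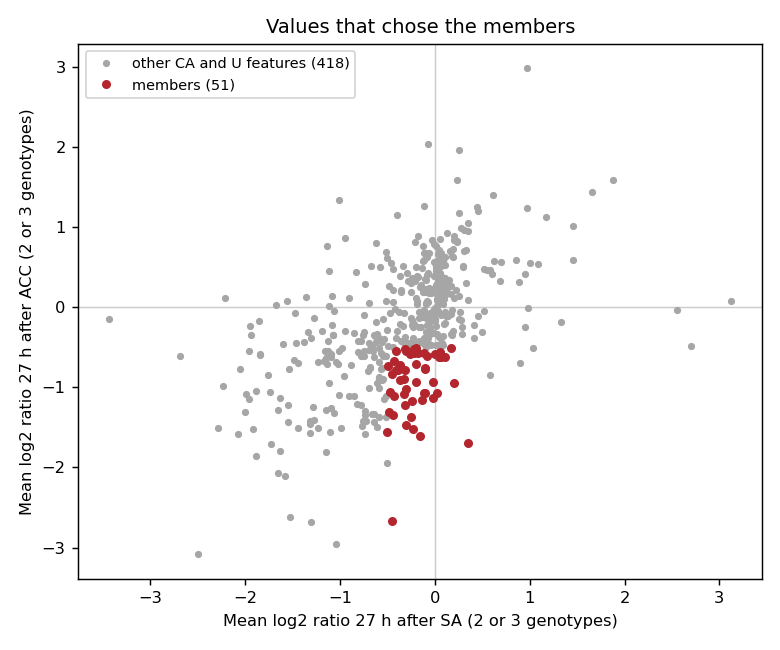
Each point is 1 CA or U feature, with its mean log2 ratio 27 h after SA on the x axis and 27 h after ACC on the y axis. The 51 chosen features (red) fill the field at or below -0.5 on the y axis and between -0.5 and 0.4 on the x axis, and U319 lies lowest among them at -2.67.

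U319 was the feature with the lowest mean, and its genotypes lay close together 27 h after ACC. Its log2 ratios were -2.75 for FLIP94-508C, -2.39 for ICC3996 and -2.86 for Lasseter, a mean of -2.67 ± 0.24 (SD, n = 3), or 6.35-fold below control. 27 h after SA the same feature was at -0.72, -0.55 and -0.07. The ACC and SA values did not overlap, but both sets of values had a part in its choice. At 3 h after ACC it was at 0.22 for FLIP94-508C, -2.55 for ICC3996 and -1.12 for Lasseter. ICC3996 was thus already low at 3 h, and FLIP94-508C was above control. MeJA left it at -1.19, 0.23 and -1.04 at 27 h in the same order of genotypes, with ICC3996 alone above control.

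U468 rested on fewer and less even values. 27 h after ACC it was at -2.25 for FLIP94-508C, -3.07 for ICC3996 and 0.22 for Lasseter, a mean of -1.70 ± 1.71 (SD, n = 3). This was the widest spread between genotypes among the members with 3 values, and Lasseter was above control. It was at -5.79 in FLIP94-508C 3 h after SA, with both other values omitted. U458 was at -1.05, -2.33 and -1.45 27 h after ACC in FLIP94-508C, ICC3996 and Lasseter, a mean of -1.61 ± 0.65 (SD, n = 3). All 3 genotypes were at least 2-fold below control there.

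CA1120, U157 and U356 had means near 1.5 units below control, each with another lowest genotype. CA1120 was at -2.42 for FLIP94-508C, -1.37 for ICC3996 and -0.89 for Lasseter (mean -1.56 ± 0.78, SD, n = 3). U157 was at -1.30, -0.86 and -2.38 in that order (mean -1.52 ± 0.78, SD, n = 3), lowest in Lasseter. U356 was at -1.96, -2.07 and -0.38 (mean -1.47 ± 0.95, SD, n = 3), so that Lasseter stayed closest to control. U151 had the least spread, with -0.83, -0.94 and -1.08 (mean -0.95 ± 0.13, SD, n = 3).

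At the limits the means differ little from those of features not chosen. U288 and U146 were just inside the ACC limit at -0.51 each, and CA0856 and U104 just outside it at -0.50 and -0.49. CA1120 and U407 were just inside the lower SA limit at -0.50 and -0.49, and CA0998 and CA0534 just outside it at -0.50 and -0.51 (rounded). At the upper SA limit, U468 and U151 were inside at 0.35 and 0.21, and U384 and U470 outside at 0.58 and 0.90.

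The 3 genotypes did not share the low level 27 h after ACC equally. Of the 50 members with 3 values, 42 (84.0%) were below control in every genotype, beside 37.5% of all features, though these values chose the members. In every genotype 12 were at or below -0.5, and 3 were at least 2-fold below control. Of the 8 with a value above control in 1 genotype, that genotype was Lasseter for 6 and FLIP94-508C for 2. The median over the members was -0.93 for FLIP94-508C, -0.96 for ICC3996 and -0.46 for Lasseter, against sample medians over all features of -0.26, -0.30 and -0.19. The highest value was in Lasseter for 28 members, in FLIP94-508C for 15 and in ICC3996 for 7. For the highest value no share over all features is given, so these counts describe the chosen values only. The lowest value was in FLIP94-508C for 15 members, in ICC3996 for 20 and in Lasseter for 15, beside 35.1%, 23.5% and 41.5% of all features. Lasseter was thus lowest as often as FLIP94-508C. The map of all values by sample shows these differences feature by feature.

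**Figure D2:**
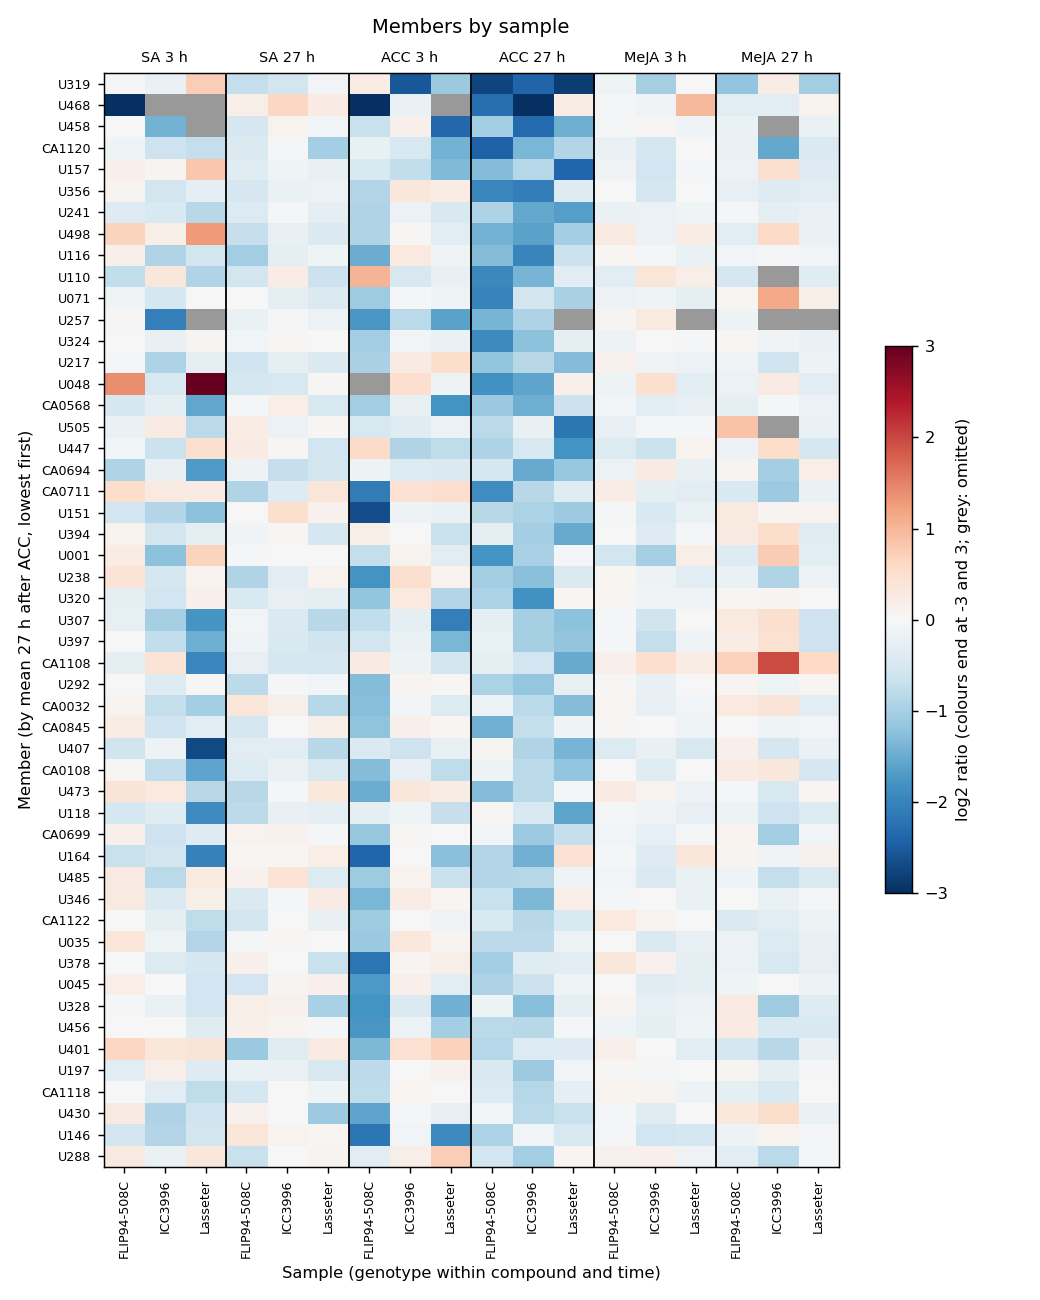
Log2 ratios of the 51 features (rows, lowest mean 27 h after ACC at the top) in the 18 samples (columns, by compound, time and genotype), blue below control, red above control and grey where the value was omitted. The block 27 h after ACC is blue in most rows, and so is the FLIP94-508C column 3 h after ACC. The ICC3996 column beside it is paler, with 27 of 51 members below control but only 1 at least 2-fold below it, against 28 of 50 in FLIP94-508C.

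The values 3 h after ACC did not enter the choice. Most members were already below control at that time, and the lowest values were mostly those of FLIP94-508C. The mean was below 0 for 48 of 51 members (94.1%), beside 65.9% of all features, with a median of -0.42 beside -0.20. It was at least 2-fold below control for 9 of 51 (17.6%), beside 11.8% of all features. All 3 genotypes were below control for 21 of 49 members (42.9%), beside 23.3%. Without the FLIP94-508C sample the mean was below 0 for 34 of 51, beside 53.6% of all features, and the median was -0.21. Without the ICC3996 sample the median was -0.64.

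The name "late" described the members best in ICC3996 and did not describe them in FLIP94-508C, where they were as low at 3 h as at 27 h after ACC. The FLIP94-508C median was -1.06 at 3 h and -0.93 at 27 h, and 20 of 50 members were lower at 27 h than at 3 h, beside 47.3% of all features. In ICC3996 the median went from -0.02 to -0.96, and 48 of 51 members were lower at 27 h, beside 53.4% of all features. In Lasseter it went from -0.27 to -0.46, with 34 of 49 lower at 27 h, beside 54.5% of all features, while the median of all features went from 0.00 to -0.19. The Lasseter members thus lay 0.27 below the sample median at 3 h and 0.28 below it at 27 h. With sample medians subtracted, 20 of 50, 44 of 51 and 31 of 49 members were lower at 27 h in FLIP94-508C, ICC3996 and Lasseter. The 27 h values chose the members, so these changes are given with no test.

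**Figure D3:**
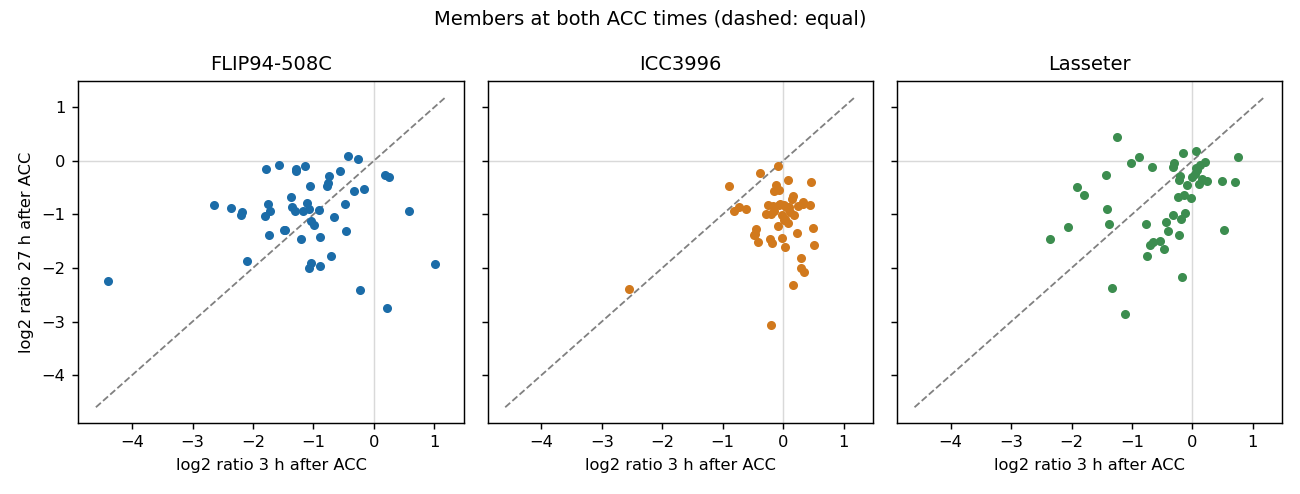
Log2 ratio of each member 3 h after ACC (x axis) and 27 h after ACC (y axis) in FLIP94-508C, ICC3996 and Lasseter, with the line of equal values dashed. Nearly all ICC3996 points (48 of 51) lie below the line and close to 0 on the x axis, while 20 of 50 FLIP94-508C points lie below it and most are spread below 0 on both axes.

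At 3 h after ACC, 28 of 50 members (56.0%) were at least 2-fold below control in FLIP94-508C, beside 30.3% of all features in that sample. The same held for 1 of 51 in ICC3996, beside 4.23%, and for 12 of 50 in Lasseter (24.0%), beside 16.5%. FLIP94-508C had the lowest of the 3 values for 35 of 49 members (71.4%), beside 46.1% of all features, and lay more than 0.5 below both other genotypes for 27 of 49, beside 30.0% of all features. The FLIP94-508C sample 3 h after ACC also had the second-largest spread over all features of the 18 (SD 1.19) and 25.3% of its features omitted, the highest share, and the part of these in the result was not tested. Relative to each sample's median over all features, the members' median was lower by 0.75 in FLIP94-508C, equal to it (difference 0.00) in ICC3996 and lower by 0.27 in Lasseter.

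One member passed limma's test 3 h after ACC. U146 fell to -2.18 in FLIP94-508C and -1.91 in Lasseter and was at -0.09 in ICC3996, a log2 ratio of -1.39 (SE 0.29, limma adjusted p = 0.0462), below control in 3 of 3 genotypes. That is 1 of 49 members tested (2.04%), beside 0.765% of the 523 features. At an unadjusted p under 0.05 there were 15 of 49 members, all lower, beside 19.1% of all features. U146 itself was one of the members nearest the ACC limit at 27 h, at -0.96, -0.09 and -0.48. The count of 1 became 0 without the FLIP94-508C or the Lasseter sample. It became 14 of 49 (28.6%) without the ICC3996 sample, beside 18.4% of all features in that fit, and U146 no longer passed in 8 of 14 alternatives. At the other end, U288 had the highest mean 3 h after ACC, with -0.33, 0.18 and 0.75 in FLIP94-508C, ICC3996 and Lasseter (mean 0.20 ± 0.54, SD, n = 3).

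After 3 h of SA the genotypes stood in another order. The members' median was 0.01 for FLIP94-508C, -0.44 for ICC3996 and -0.53 for Lasseter, and FLIP94-508C had the lowest value for 0 of 48 members with 3 values, beside 30.2% of all features. Values at least 2-fold below control were seen for 1 of 51 members in FLIP94-508C (beside 7.97% of all features), 3 of 50 in ICC3996 (beside 9.41%) and 11 of 48 in Lasseter (beside 22.1%). The mean over genotypes was below 0 for 41 of 50 members (82.0%), beside 59.9% of all features, and at least 2-fold below control for 4 of 50, beside 10.6%. All 3 values were below control for 13 of 48 members (27.1%), beside 21.9%. The median of the means was -0.27, beside -0.15 over all features. Without the FLIP94-508C sample it was -0.44.

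**Figure D4:**
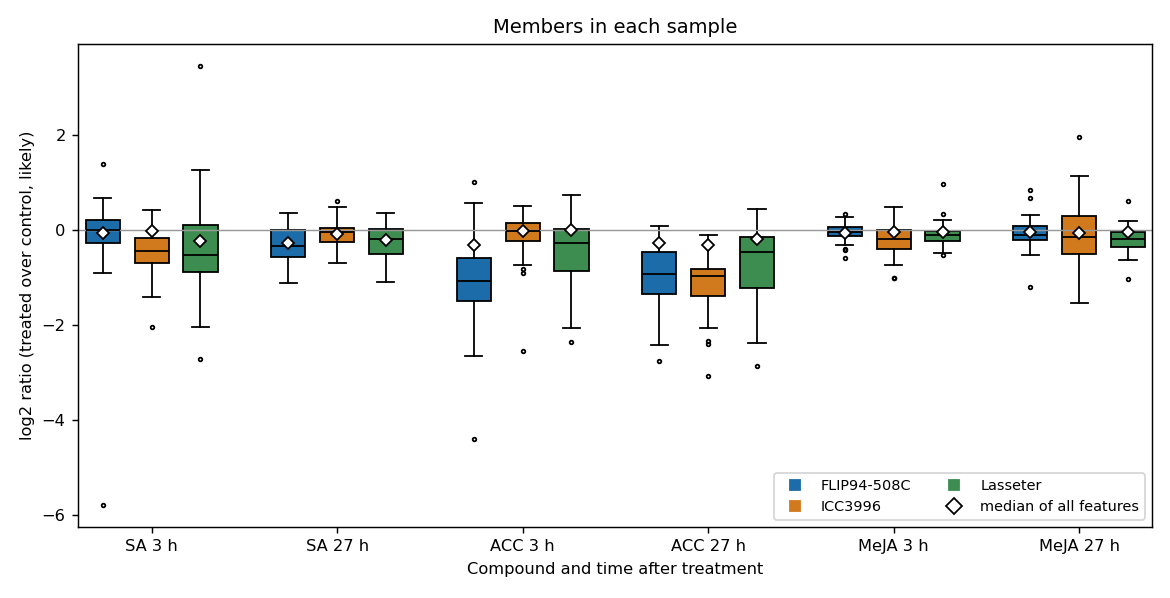
Log2 ratios of the members in each of the 18 samples, as boxes from the lower to the upper quartile with the median as a line, whiskers to the last value within 1.5 times the box and points beyond, and white diamonds for the median of all features. The FLIP94-508C box sits lowest 3 h after ACC (median -1.06) and highest 3 h after SA (median 0.01), and the MeJA boxes stay near 0.

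2 members passed limma's test 3 h after SA, U307 and U118, both below control in 3 of 3 genotypes. U307 was at -0.25 for FLIP94-508C, -0.99 for ICC3996 and -1.78 for Lasseter (log2 ratio -1.01, SE 0.25, limma adjusted p = 0.0357). U118 was at -0.53, -0.37 and -1.88 (log2 ratio -0.93, SE 0.26, limma adjusted p = 0.0485). Lasseter was lowest in both. These are 2 of 49 members (4.08%), beside 6.12% of all features, a share no higher than the background. At an unadjusted p under 0.05 there were 13 of 49 members (26.5%), 11 of them lower, beside 20.3% of all features. The count of 2 became 0 without the Lasseter sample and 5 of 49 (10.2%) without the ICC3996 sample, beside 7.27% of all features in that fit. Of 14 alternatives, U307 no longer passed in 11 and U118 in 10, and the p-values of both lay close to the threshold.

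U407 had the lowest mean, at -0.59, -0.16 and -2.70 in FLIP94-508C, ICC3996 and Lasseter (mean -1.15 ± 1.36, SD, n = 3). U048 had the highest mean, at 1.40, -0.47 and 3.47 (mean 1.46 ± 1.97, SD, n = 3), and was the single member with a mean at least 2-fold above control in that group. At 27 h after ACC U048 was at -1.81, -1.58 and 0.15, and 27 h after SA at -0.53, -0.48 and 0.04. Lasseter had the highest value of U048 in each of these 3 groups.

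ACC and SA were compared at 3 h, the time that did not choose the members. The ACC value was below the SA value for 37 of 49 members (75.5%), beside 49.7% of all features, with a median fitted difference of -0.12 beside 0.00 (-0.19 from plain group means, used for the values by genotype). This direction was that of FLIP94-508C alone, and without that genotype it turned. Within FLIP94-508C the ACC value was the lower for 40 of 48 members, with a median difference of -1.01. It was the lower for 12 of 49 members in ICC3996 (median difference 0.45) and for 19 of 48 in Lasseter (0.34). Without FLIP94-508C, ACC lay below SA for 14 of 49 members (28.6%), beside 46.8% of all features, with a median difference of 0.27. No member passed in limma (0 of 49), beside 0.574% of all features, and 5 had an unadjusted p under 0.05, beside 11.9%. The lowest p was that of U498, at -0.90, 0.03 and -0.33 after ACC and at 0.68, 0.17 and 1.28 after SA in FLIP94-508C, ICC3996 and Lasseter. All ACC values lay below all SA values, with a difference of -1.11 (SE 0.33, limma adjusted p = 0.147), which did not pass. Without the ICC3996 sample 3 h after ACC 3 of 49 members passed (6.12%), about the 5.93% of all features that did, and U498 was among them (adjusted p = 0.0431 in limma).

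Under MeJA the members' means lay close to control at both times, in samples where most features did. The SD over all features was 0.28 to 0.37 in the MeJA samples other than ICC3996 at 27 h (1.04). The share of all features below the members' median ran from 26.7% (Lasseter at 27 h) to 53.0% (FLIP94-508C at 3 h). At 27 h after ACC this share ran from 22.8% (ICC3996) to 35.9% (Lasseter). At 3 h the median of the means was -0.11, beside -0.05 over all features. The mean was below 0 for 41 of 51 members (80.4%), beside 60.5%, and all 3 genotypes were below control for 18 of 50, beside 28.5%. At 27 h the median was -0.12, beside -0.06, with 36 of 50 means below 0 (72.0%), beside 59.2%, and 16 of 47 members below control in all 3 genotypes, beside 25.8%. No member had a mean at least 2-fold below control at either time, and the means ran from -0.46 to 0.28 at 3 h and from -0.72 to 1.08 at 27 h.

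No member passed limma's test under MeJA, 0 of 49 at each time beside 0% of all features. The spread was pooled over all groups, so the members' median SE was 0.27, the same as for SA and ACC at 3 h. At an unadjusted p under 0.05 there were 0 members at 3 h (beside 1.91% of all features) and 2 at 27 h (beside 5.16%). By the methods' t-test 2 and 3 members had such a p, beside 13.8% and 9.18% of all features, with 0 left once adjusted. With samples scaled to equal spread, 4.97% of all features passed in limma at 3 h, and 0 of 49 members. Under that scaling 18.4% of members had an unadjusted p under 0.05 at 3 h, beside 17.6% of all features. The counts of 0 therefore do not show that MeJA had no effect. CA1108 had the highest mean, one of 14 of 50 means not below 0 at 27 h and the single one at least 2-fold above control. It was at 0.68 for FLIP94-508C, 1.96 for ICC3996 and 0.61 for Lasseter 27 h after MeJA (log2 ratio 1.08, SE 0.29, limma adjusted p = 0.317, not passing), and at 0.14, 0.50 and 0.21 3 h after MeJA, the highest mean of both times. 27 h after ACC it was at -0.29, -0.57 and -1.50. Every MeJA value of CA1108 was above control and every 27 h value under ACC and SA below it. It passed with samples scaled to equal spread (adjusted p = 0.00280, 2.87% of all features called) and with sample weights (adjusted p = 0.0339, 1.15% called), both in limma.

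At the low end under MeJA were U001 and CA1120. U001 was at -0.58, -0.996 and 0.18 in FLIP94-508C, ICC3996 and Lasseter at 3 h (mean -0.46 ± 0.60, SD, n = 3). CA1120 was at -0.19, -1.52 and -0.43 at 27 h (mean -0.72 ± 0.71, SD, n = 3). ICC3996 was lowest in both. Its sample 27 h after MeJA held 5 of 47 members at least 2-fold below control (10.6%), beside 10.7% of all features in that sample. The lowest p at 3 h was that of U146 (log2 ratio -0.39, SE 0.29, limma adjusted p = 0.997), which did not pass. Between 27 h and 3 h of MeJA no member differed in limma (0 of 49, beside 0% of all features), and 0 had an unadjusted p under 0.05, beside 0.191%. CA1108 had the lowest p (difference 0.80, SE 0.41, limma adjusted p = 0.999).

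The genotypes were compared over the 12 samples that had no part in the choice, 4 for each genotype. No member differed in limma for any of the 3 pairs, 0 of 49 each beside 0% of 527 features. At an unadjusted p under 0.05 there were 2 members between ICC3996 and Lasseter, 2 between Lasseter and FLIP94-508C, and 0 in the remaining pair, beside 1.52% of all features in each. CA1108 was higher in ICC3996 than in Lasseter by 1.10 (SE 0.38, limma adjusted p = 0.999). U307 was higher in FLIP94-508C than in Lasseter by 0.93 (SE 0.36, limma adjusted p = 0.979). CA1120 was at a difference of -0.60 between ICC3996 and FLIP94-508C (SE 0.32, limma adjusted p = 0.994). None of these passed. The orders of the genotypes within 1 compound and time could not be tested, since each had 1 sample.

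Some members followed each other closely over the 12 samples not used for the choice. The median Pearson correlation between 2 members was 0.39 (990 pairs of 45 members with all 12 values), beside 0.02 over 100128 pairs of all features. With samples centred and scaled to equal spread the medians were 0.18 and 0.01. These are descriptions over samples that differ in spread (SD 0.28 to 1.22 over all features). The pairs most alike were CA0845 with U116 (r = 0.98), U307 with U397 (r = 0.97) and CA0711 with U401 (r = 0.97, n = 12 samples each). An r above 0.9 was seen for 17 of the 990 member pairs (1.72%), beside 0.775% of the pairs of all features. Links of r above 0.9, a limit chosen after seeing the data, joined 9 members: CA0711, CA0845, U116, U238, U292, U324, U346, U378 and U401. Within them r ran from 0.48 to 0.98 with a median of 0.86. With samples centred and scaled to equal spread the lowest was 0.04 and the median 0.59.

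The 3 h values of the 9 linked members helped to form the links and are given as a description. At 3 h after ACC they lay between -2.19 and -1.04 in FLIP94-508C, between -0.08 and 0.49 in ICC3996 and between -0.20 and 0.70 in Lasseter. At 27 h after ACC, which the links did not use but the choice of members did, their medians were -1.04 for FLIP94-508C, -1.17 for ICC3996 and -0.34 for Lasseter. The value was highest in Lasseter for 9 of 9, beside 28 of the 50 members with 3 values. The 9 were linked for being alike, so they do not count as 9 separate observations. At 3 h after SA their medians were 0.23, -0.40 and 0.08. The Lasseter median was above control there, with values from -0.55 to 0.38, unlike the median of all members (-0.53).

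A second set, put together after its values were seen, had the other order of genotypes at 27 h. CA0032, CA0108, U430, U307 and U397 correlated at 0.55 to 0.97 with each other over the 12 samples, with a median of 0.83 (0.87 with samples centred and scaled to equal spread). At 27 h after ACC they lay between -0.28 and -0.08 in FLIP94-508C, between -0.99 and -0.80 in ICC3996 and between -1.31 and -0.68 in Lasseter. The value was highest in FLIP94-508C for 5 of 5, beside 15 of the 50 members with 3 values. At 3 h after SA they lay between -0.25 and 0.27 in FLIP94-508C, between -0.99 and -0.72 in ICC3996 and between -1.78 and -0.60 in Lasseter. At 27 h after MeJA they were above control in FLIP94-508C (0.23 to 0.32) and ICC3996 (0.35 to 0.53) and below it in Lasseter (-0.62 to -0.21). Whether such features are copies of 1 gene was not tested, since the files used here pair none with a gene.

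**Figure D5:**
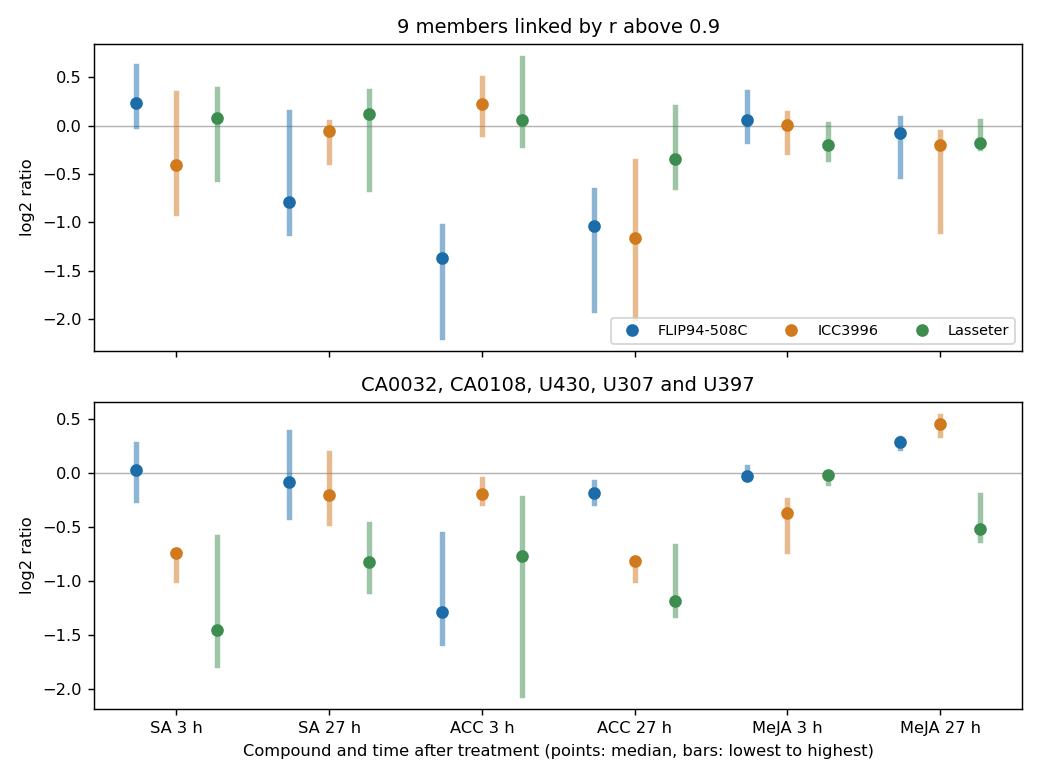
Log2 ratios in each sample of the 9 members linked by r above 0.9 (upper panel) and of CA0032, CA0108, U430, U307 and U397 (lower panel), as the median (point) and the lowest to highest value (bar), coloured by genotype. 27 h after ACC the upper set is nearest to control in Lasseter (median -0.34) and the lower set in FLIP94-508C (median -0.19).

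The features most like these 51 are the 105 CA and U features whose means were at or below -0.5 27 h after both ACC and SA, and their values are given side by side with no test. Their median 3 h after ACC was -0.57, beside -0.42 for the 51, and 3 h after SA it was -0.50, beside -0.27. Under MeJA it was -0.21 at 3 h and -0.20 at 27 h, beside -0.11 and -0.12. FLIP94-508C had the lowest value for 67.1% of them 3 h after ACC and for 11.4% 3 h after SA, beside 71.4% and 0% of the 51, each among features with 3 values. The order of the genotypes at 3 h was thus seen in both sets of features.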

How the data were processed

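Per the series' design text, slides were read by the authors with an Affymetrix 428 scanner (Jaguar 2.0), quantified spots with ImaGene 5 (5.5 in the readme), and in GeneSight 3 subtracted local background, omitted flagged spots, applied Lowess, formed Cy5/Cy3 ratios, took a shifted logarithm and combined duplicate spots. The deposited values are therefore log2 ratios, averaged by the authors over 3 biological replications with dye swaps, per the labels. The shift has no size in the labels or files used here. Such a shift pulls ratios of dim spots towards 0. Arrays give no read depth, so their number and the omitted spots limit the precision.

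The members, lists and tests were chosen with earlier results of these data known. Features with at least 2 of 3 values in each of the 6 groups (523) were fitted across all genes with limma 3.58.1 in R 4.3.3, with group means and a genotype term (10 residual degrees of freedom). Genotype pairs were tested over the 12 samples that the choice did not use (527 features, 6 residual degrees of freedom). All tests were two-sided, and p-values were adjusted over all features tested (Benjamini-Hochberg) with a threshold of 0.05. The genotypes served as replicates (n = 3), paired because each was sampled in every group. For a group, the p-value sets the mean over genotypes against how unevenly they responded. That unevenness was pooled over all groups fitted, which in the fits of all 18 samples included those 27 h after SA and ACC. The fits were also run on simulated data in which each feature had the same spread in every sample. The real samples differ in spread (SD 0.28 to 1.22 over all features), so that run does not show how the fits behave here. Fits used only measured values, and features measured in fewer samples had fewer degrees of freedom. The 3 NORMCON features were left out. Named members were the 6 lowest 27 h after ACC, those at the limits, those past a test or with its lowest p, and the extremes of each group and of the spread between genotypes. Gene lists on ethylene, photosynthesis and defence were planned and not used, because no identifier had a gene name. Alternatives were other scalings, sample weights, other feature filters, no genotype term, the methods' t-test and leaving out samples.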

Additional observations from a re-analysis of the deposited data

Results flagged for a closer look

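Groups of 6 samples, each compound and each genotype, were searched for a value far from the others. The measures were the members' median and the number of members at least 2-fold below control, which made 12 searches. In these, 3 counts stood apart. The limit marks about 1 in 20 by chance only for independent values of even spread. Here each sample was searched under its compound and again under its genotype, and samples differ in spread. The 3 are therefore not set against chance. The choice of members fixed the third and kept low some of the counts set beside the second. The ICC3996 sample 27 h after MeJA had 5 such members against at most 1 in the other MeJA samples, which is 10.6% of its members beside 10.7% of all its features. The Lasseter sample 3 h after SA had 11 against at most 3 in the other SA samples, which is 22.9% of its members beside 22.1% of all its features. Those other samples include the ones 27 h after SA, where the choice kept the counts low (2, 0 and 2 in FLIP94-508C, ICC3996 and Lasseter). The ICC3996 sample 27 h after ACC had 23 against at most 5 in the other ICC3996 samples, but its values chose the members, so this count shows nothing beyond the choice.

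For 4 named members every genotype lay on one side of control at 3 h and on the other at 27 h, and these differences (27 h minus 3 h) were not tested. Under SA, U146 and U151 went from below to above control, with differences of 0.83 and 1.11 on the log2 scale. U157 and U498 went from above to below control under SA, with differences of -0.59 and -1.15. U151 also went from below to above control under MeJA, with a difference of 0.39.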

How the results depend on the processing

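The count of 2 members called 3 h after SA became 0 with sample medians subtracted, with sample weights, with no replicate block (the genotype term left out), with only the 12 samples the choice did not use, and by the methods' t-test, and ran from 0 to 5 (at 5, 7.27% of all features were called) when a sample or genotype was left out. The count of 1 member 3 h after ACC became 0 with equal spread, with sample weights, with the 12 samples and by the methods' t-test, 4 over features measured in all samples (8.89%, beside 3.15% of those features), and 0 to 14 (at 14, 28.6% beside 18.4%) when a sample or genotype was left out. For MeJA at 27 h the count of 0 became 1 with equal spread (2.04%, beside 2.87% of all features) and 2 with sample weights (4.08%, beside 1.15%). For ACC against SA at 3 h it was 0 to 3 (at 3, 6.12% beside 5.93%) when a sample or genotype was left out. The counts of 0 for MeJA at 3 h, for the MeJA times and for the 3 genotype pairs stayed 0 in each alternative run. For MeJA at 3 h the share of all features called did rise, to 4.97% with equal spread and 0.765% with sample weights. The cause of these changes was not tested. Without FLIP94-508C, ICC3996 or Lasseter, 63, 42 and 81 features met the rule, of which 31, 31 and 40 were among the 51. With sample medians subtracted 47 did, of which 30 were among the 51. Relative to sample medians, the members' medians were -0.16 and -0.31 at 3 h after SA and ACC and -0.07 and -0.08 at the MeJA times, and 37, 45, 36 and 33 members were below 0. Leaving out a sample gave medians from -0.44 to -0.18, -0.64 to -0.21, -0.15 to -0.07 and -0.16 to -0.11, with 36 to 43, 34 to 49, 36 to 42 and 35 to 39 members below 0. ACC lay below SA at 3 h for 37 members (36 relative to sample medians) and for 14 to 42 when a genotype was left out. The median difference of plain means, -0.19, ran from -0.47 without ICC3996 to 0.27 without FLIP94-508C, where its direction turned. These counts and medians were alternatives added after seeing the data.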
